A study of Mus musculus with 30 samples.

Results

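Left ventricles of 16 mice of the antibody study were ranked by the percent of all sequencing counts that fell on the 15 counted genes of the mitochondrial genome, whose symbols start with mt-. The 5 hearts with the highest percent (high hearts) were compared with the 5 with the lowest percent (low hearts), so that 10 of the 16 hearts, of 30 in the series, entered the comparison and 6 lay between. The mitochondrial genes chose the hearts, and their values are given as a description, with no test. The question was how the nuclear genes differ between hearts with much and little mitochondrial RNA, whatever antibody the mouse received.

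RNA was sequenced from the left ventricle of male wild type C57BL6J mice in 2 separate experiments. In the antibody study, 8 mice received 3D6, an antibody that neutralises amyloid beta (Aβ), and 8 received a control antibody, each by weekly injection of 0.75 mg/kg for 4 months, starting near 12 weeks of age, and the mice were fasted for 5 h before they were killed. The methods of the study put all of these mice on a high-fat diet, whereas the series description says that they were given Aβ42, the form of amyloid beta with 42 amino acids. Neither source separates the 3D6 and control mice in this. In the peptide study, used here for comparison, 7 mice received Aβ42 and 7 a scrambled sequence (ScrAβ42) daily for 4 weeks. For these mice the methods of the study give a range of starting ages that ends at 12 weeks. The hearts are named here by treatment and mouse number.

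Mitochondria carry their own small circular genome, which is copied into RNA by a dedicated polymerase and encodes core subunits of the respiratory chain together with the RNAs of the mitochondrial ribosome. All other mitochondrial proteins are encoded in the nucleus, among them most respiratory chain subunits, and are imported. Heart muscle is dense in mitochondria, and its RNA is rich in mitochondrial transcripts. Stretches of the mitochondrial genome have also been copied into nuclear chromosomes, where they are annotated as pseudogenes.

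The high hearts were 3D6 4, at 37.8% of all counts on mitochondrial genes, control 8 at 37.7%, 3D6 12 at 35.2%, control 3 at 35.2% and 3D6 7 at 33.9%. The low hearts were 3D6 20 at 30.6%, control 15 at 30.3%, control 23 at 30.3%, control 18 at 28.7% and control 22 at 25.9%. The heart just outside the high set, 3D6 16, had 33.7%, and the heart just outside the low set, control 19, had 32.0%. The high set thus lay close to its neighbour, and the low set was spread more widely, with control 22 apart. The high set held 3 of the 3D6 hearts and 2 controls and the low set 1 and 4, so the antibody was a covariate in the fit. The labels number the high hearts from 3 to 12 and the low hearts from 15 to 23, and of the 6 hearts between, only control 11 has a number below 15. The labels do not say what the number stands for, and whatever it stands for cannot be told apart from the mitochondrial percent in the comparison of high and low hearts.

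Of 11 nuclear pseudogenes that share at least 100 bases at 95% identity or more with a mitochondrial transcript, 6 took 1000 counts or more over the 16 hearts. These counted copies lie beside each other on chromosome 1 of GRCm38. Gm28661 (chr1:24614885-24615565, minus strand) matches mt-Co2, subunit 2 of cytochrome c oxidase, at 100% over 681 bases. Gm10925 (chr1:24613974-24614651, minus strand) matches mt-Atp6, a subunit of the ATP synthase, at 100% over 678 bases. Gm28437 matches mt-Co3 at 100% over 783 bases, Gm10222 matches mt-Nd4l at 100% over 294 bases, Gm28438 matches mt-Nd3 at 99.7% over 345 bases and Gm29216 matches mt-Co1 at 99.8% over 483 bases. The first 60 bases of mt-Co2 and of its copy are shown because a read from them fits both genes alike, and the start of the match of mt-Co1 and Gm29216 because it holds the only base at which they differ there, A1066T (counted from the start of mt-Co1), printed in capitals. The sequences are from the GENCODE vM21 transcripts.
mt-Co2: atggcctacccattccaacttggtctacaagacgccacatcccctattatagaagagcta
Gm28661: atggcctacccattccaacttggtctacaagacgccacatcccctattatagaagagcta
mt-Co1: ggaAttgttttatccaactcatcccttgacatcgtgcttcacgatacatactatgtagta
Gm29216: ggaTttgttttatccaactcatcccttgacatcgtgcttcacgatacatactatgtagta

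The copies took 8.08% ± 0.587 of all counts in the high hearts and 11.04% ± 1.76 in the low hearts (SD, n = 5 each), opposite to the mitochondrial genes. Gm29216 had 321 counts in 3D6 4, 7 in control 8, 50 in 3D6 12, 139 in 3D6 7 and 30159 in control 3. In the other 11 hearts it had between 18983 and 126337 counts. The copy was thus near 0 in 4 of the 5 high hearts and in no other heart. With the copies added to the mitochondrial genes, the percent was 44.0 ± 1.96 in the high hearts and 40.2 ± 1.14 in the low hearts, and 3 of the 5 high and 4 of the 5 low hearts kept their place among the 5 highest and 5 lowest. With the 9 mitochondrial genes that have no counted copy, the same 5 hearts were highest, from 18.8% to 21.5% of counts, and the same 5 were lowest, from 15.7% to 17.04%. The hearts chosen were thus the same with or without the mitochondrial genes that have a counted copy, and changed when the counts of the copies were added.

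**Figure D1:**
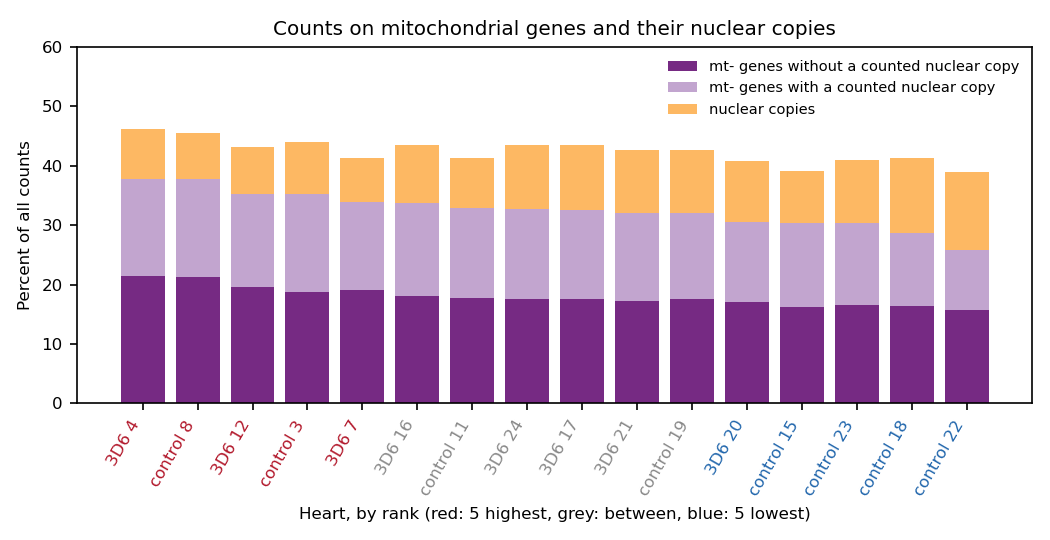
Percent of all counts (vertical axis) on mitochondrial genes without a counted nuclear copy, on those with one, and on the 6 counted copies plus the rarely counted others, for the 16 hearts of the antibody study in rank order. The dark purple bars lie between 18.8% and 21.5% in the 5 high hearts and between 15.7% and 17.04% in the 5 low hearts, while the orange bars are between 7.34% and 8.90% in the 5 high hearts and reach 13.01% in the lowest.

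The mitochondrial transcripts did not differ by a common factor. mt-Nd5, the longest of them and a subunit of complex I, took 3.76% of counts in 3D6 4, 3.61% in control 8, 3.17% in 3D6 12, 2.41% in control 3 and 3.47% in 3D6 7. It took 1.52% in 3D6 20, 1.74% in control 15, 1.35% in control 23, 1.13% in control 18 and 1.42% in control 22. The sets did not overlap, and their means differed by 2.29 times. mt-Nd2, another complex I subunit, took 2.48% ± 0.180 in the high and 1.59% ± 0.187 in the low hearts, a ratio of 1.56, and mt-Co1 with its copy had a ratio of 1.19. mt-Nd1 and mt-Cytb, which encodes cytochrome b of complex III, had ratios of 1.07 and 1.08 with overlapping sets.

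Other mitochondrial transcripts, with the copy added where there is one, were at a smaller share in the high hearts. Among them mt-Atp6 was at a larger share without its copy, with a ratio of 1.25. mt-Co3 with Gm28437 took 3.20% ± 0.326 in the high and 4.21% ± 0.648 in the low hearts, a ratio of 0.760. The ratio was 0.857 for mt-Atp6, 0.866 for mt-Co2 and 0.620 for mt-Nd3, each with its copy. The ribosomal RNAs had ratios of 0.746 (mt-Rnr1) and 0.833 (mt-Rnr2). All 6 sets of values overlapped. With copies added, the transcripts at a smaller share include 4 messenger RNAs of 348 to 784 bases, of which mt-Atp6 was so only with its copy. The transcripts mt-Nd5, mt-Co1, mt-Nd4, mt-Cytb and mt-Nd2, all over 1000 bases, were at a larger share. The short mt-Nd4l (297 bases, ratio 2.00 with its copy), mt-Atp8 (204 bases, ratio 1.37) and mt-Nd6 (519 bases, ratio 1.25) went the other way. The first 2 of these share their RNA with mt-Nd4 and mt-Atp6, respectively.

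**Figure D2:**
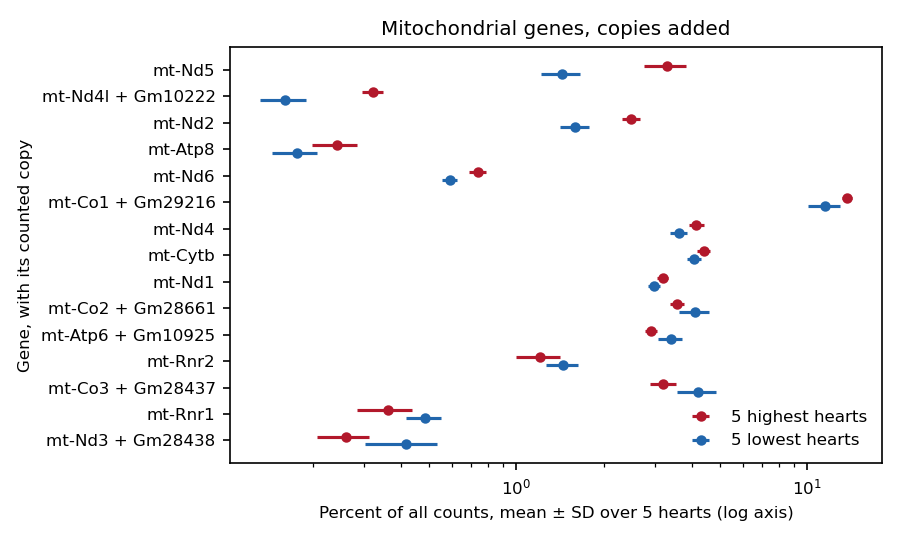
Percent of all counts (log axis) on each mitochondrial gene, with its counted nuclear copy where it has one, as mean ± SD over the 5 high (red) and 5 low (blue) hearts, ordered by the ratio of means. mt-Nd5 lies at the top with a ratio of 2.29 and mt-Nd3 with its copy at the bottom with 0.620.

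Total counts were 7221697 ± 634452 in the high and 6866175 ± 311238 in the low hearts (SD, n = 5 each; exact permutation test, two-sided, p = 0.302). The number of nuclear genes with at least 10 counts was 11965 ± 247 in the high and 12376 ± 90.6 in the low hearts (exact permutation test, two-sided, p = 0.0238, where the smallest p that this design can give is 0.00794). Nuclear counts were 4598671 ± 435105 in the high and 4833750 ± 173726 in the low hearts. The ranking itself lowers the nuclear share of counts in the high hearts, so the test of the gene number was not independent of it. Both exact tests permuted the hearts without regard to the antibody.

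Among nuclear genes, 12131 were tested with counts scaled without the mitochondrial genes. Of these, 898 were higher in the high hearts (7.4% of those tested) and 654 lower (5.39%) at an adjusted p under 0.05 in edgeR's quasi-likelihood test, 12.8% in all. The changes were mostly moderate, with a median log2 fold change of 0.63 among the genes called higher and -0.67 among those called lower. The normalised read counts of the sets did not overlap for 12.5% of the genes upwards and 6.41% downwards. Of the called genes, 75 differed by more than 1 on the log2 scale upwards and 85 downwards. The balance of directions depended on the scaling. With library sizes from the tested genes alone the calls were 1106 higher and 518 lower, with the copies left out 1110 and 520, and with mitochondrial counts kept in the total 474 and 1525, which moved the median over all genes from -0.04 to -0.17.

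These counts rested on single hearts and on the ranking. Without control 8, 1 of 2 controls in the high set, 5 genes passed, and without 3D6 20, the only 3D6 heart in the low set, 7 passed. When the hearts were ranked by mitochondrial genes and copies together, and the copies were left out of the table, edgeR called 0 of 12123 genes, with 1530 at an unadjusted p under 0.05. Within the 10 hearts with mouse numbers of 15 or more, with the percent as a continuous term, 1037 genes were higher and 979 lower with more mitochondrial RNA. Of these, 536 were also called between the high and low hearts in the same direction and 1 in the other. Within the 6 hearts with numbers of 12 or less, 4 were higher and 19 lower. Over all 16 hearts, with the mouse number as a further term, 419 were higher and 318 lower. Of the 1552 genes called between the high and low hearts, 310 were among them, in the same direction. Fits with the percent as a continuous term give slopes. They are stated as log2 fold changes per difference between the mean percents of the high and low hearts (35.9 and 29.2).

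The changes went with transcript length. With the tested genes in 5 equal length groups, in the shortest group, from 243 to 1669 bases, the median log2 fold change was -0.35, with 12 genes called higher and 418 lower. In the middle group, from 2495 to 3396 bases, the median was 0.00, with 82 higher and 67 lower. In the longest group, from 4769 bases, the median was 0.22, with 540 higher and 22 lower. The median length was 5226 bases for the genes called higher and 1315 bases for those called lower, against 2904 bases for all genes tested. Across genes, which are not independent replicates, Spearman's rho of the fold change was 0.46 with length and -0.31 with GC content. With the trend of each heart with length removed, 111 genes were higher and 30 lower (1.16% of those tested), and 134 of these 141 were also called without that step.

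The share of nuclear counts, copies left out, on the longest of these groups divided by the share on the shortest was 1.11 in 3D6 4, 1.17 in control 8, 1.14 in 3D6 12, 0.838 in control 3 and 1.20 in 3D6 7. It was 0.726 in 3D6 20, 0.785 in control 15, 0.664 in control 23, 0.647 in control 18 and 0.557 in control 22. Of the hearts between, control 11 had a ratio of 0.817 and the other 5 had from 0.645 to 0.715. The 4 hearts with a ratio over 1 were the 4 with almost no counts on Gm29216. In the peptide study, where the high and low hearts were chosen by the same rule, the median log2 fold change was 0.03 in the shortest and -0.03 in the longest group.

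**Figure D3:**
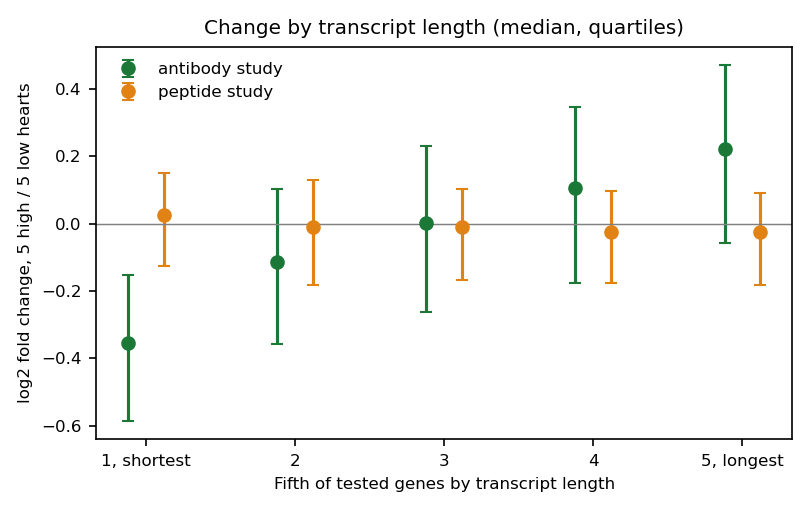
Median log2 fold change between 5 high and 5 low hearts (points; whiskers: quartiles over genes) by transcript length in 5 groups of genes, for the antibody study (green) and the peptide study (orange). The green medians rise from -0.35 to 0.22 with length, and the orange ones stay between 0.03 and -0.03.

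Among single genes, *Ppara* (chr15:85734983-85802819), the fatty acid receptor that drives genes of fat oxidation, was higher in the high hearts. Its normalised read count (CPM, scaled to the nuclear counts of each library adjusted by TMM factors) was 46.2 in 3D6 4, 33.6 in control 8, 37.6 in 3D6 12, 30.8 in control 3 and 33.4 in 3D6 7, against 10.9 in 3D6 20, 14.9 in control 15, 10.5 in control 23, 9.41 in control 18 and 10.1 in control 22. The sets did not overlap, with a log2 fold change of 1.59 ± 0.16 (SE; adjusted p = 0.00124). The 6 hearts between had 10.2 to 19.9 CPM, all below the high hearts. Over 16 hearts, with the percent as a continuous term and the mouse number in the fit, the slope was 0.60 (adjusted p = 0.183). With the length trend removed, *Ppara* remained past the threshold (1.54).

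Further genes with the smallest p among those higher were *Nnt* (log2 fold change 1.17), *Gpld1* (1.21), *Pde4d* (1.12), *Asb15* (0.92), *Fnip1* (1.04), *Strn* (0.89), *Larp4* (0.93), *Soga1* (0.90), *Ralgapa2* (0.72) and *Lgr4* (1.03). *Nnt* encodes the transhydrogenase that makes NADPH in mitochondria, *Pde4d* a phosphodiesterase that breaks down cyclic AMP, *Fnip1* a partner of folliculin in AMPK and mTORC1 signalling and *Lgr4* a receptor for R-spondins. *Nnt* is uncertain, since a second overlapping gene carries the same symbol and had a log2 fold change of -0.22 ± 0.39. Within the 10 hearts numbered 15 or more, the slopes of *Pde4d* (-0.16) and *Ralgapa2* (-0.05) went the other way.

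The gene with the smallest p of all was *Pcdhgc4*, a clustered protocadherin. It had 0.734 CPM in 3D6 4, 0.218 in control 8, 1.46 in 3D6 12, 0.700 in control 3 and 0.212 in 3D6 7, against 30.3 in 3D6 20, 25.2 in control 15, 36.3 in control 23, 52.8 in control 18 and 58.0 in control 22 (log2 fold change -5.71 ± 0.41, adjusted p = 5.684e-05). The 6 hearts between had 22.7 to 45.7 CPM, so that the gene was near 0 in all 5 high hearts and in no other. It shares its last exons with the other genes of the cluster, and its counts are uncertain for that reason. The next genes lower in the high hearts were *Fyb* (-1.78), an adaptor of immune cells, *Tagln* (-1.01) and *Myl9* (-1.45), smooth muscle proteins of the contractile apparatus, *Sec61g* (-1.08), a subunit of the protein channel of the endoplasmic reticulum, *Gpx1* (-0.75), a glutathione peroxidase, *Hbb-bt* (-1.06), a beta globin, *Commd4* (-1.01), *Ccdc107* (-0.72), *Lsp1* (-0.79), *Mt2* (-1.45), a metallothionein, and *Zfand2b* (-0.85). Within the 10 hearts numbered 15 or more, the slope of *Mt2* went the other way (0.58).

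**Figure D4:**
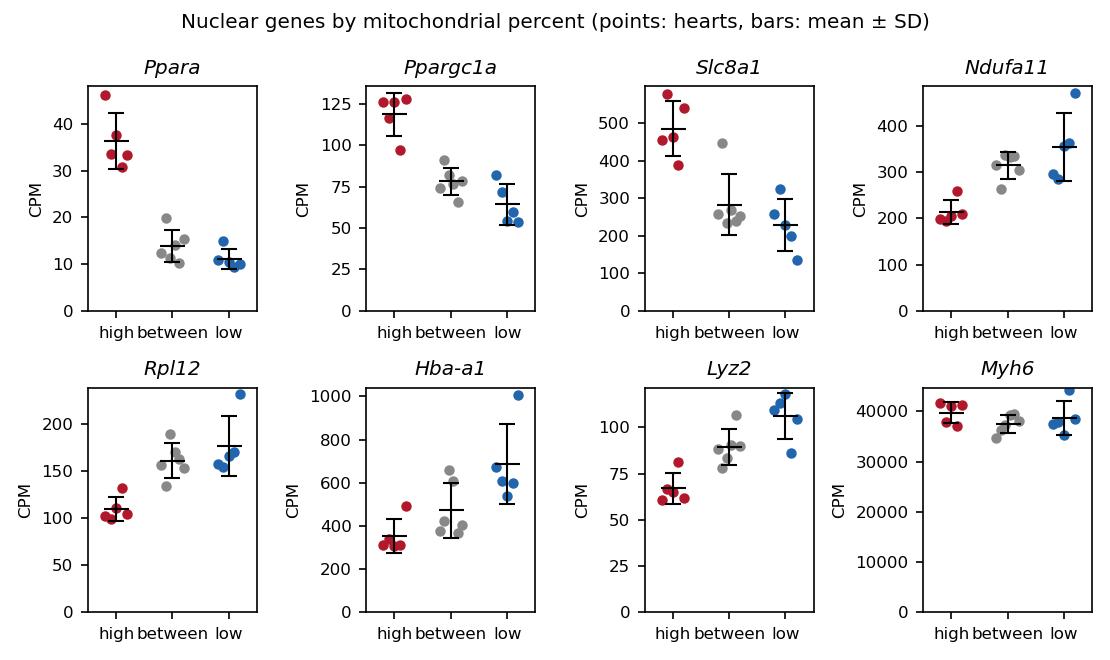
CPM of 8 nuclear genes (vertical axes from 0) in the 5 high, 6 between and 5 low hearts of the antibody study; points are hearts and bars are mean ± SD. *Ppara* and *Ppargc1a* lie higher in the 5 high hearts than in all others, *Rpl12* lies lower in them than in all others, and *Myh6* is alike in the 3 sets.

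Of 18 regulators of mitochondrial biogenesis, 4 rose and none fell, against 7.4% of all genes tested that were higher. The median log2 fold change of the list was 0.34 against -0.04 for all genes tested, and 0.23 against genes of like length. *Ppargc1a*, the coactivator PGC-1α that directs mitochondrial biogenesis, had 126 CPM in 3D6 4, 117 in control 8, 126 in 3D6 12, 96.9 in control 3 and 128 in 3D6 7. It had 82.2 in 3D6 20, 71.8 in control 15, 54.3 in control 23, 59.9 in control 18 and 53.9 in control 22. The sets did not overlap (log2 fold change 0.73 ± 0.12, adjusted p = 0.0108). *Esrrg*, an estrogen-related receptor of the same programme, rose by 1.22 ± 0.21 (adjusted p = 0.0124), and *Prkaa2*, the main catalytic AMPK subunit of muscle, by 1.21 ± 0.27 (adjusted p = 0.0232). *Ppara* was the fourth. With the length trend removed, 3 of the 4 passed.

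Of 16 tested genes of mitochondrial DNA upkeep and transcription, 0 passed edgeR's test (1 at an unadjusted p under 0.05; 0 in DESeq2), and their median log2 fold change was 0.08. *Tfam*, which packs mitochondrial DNA and starts its transcription, differed by 0.20 ± 0.15 (36.7 ± 2.35 CPM in the high and 31.2 ± 6.19 in the low hearts, adjusted p = 0.373). *Polrmt*, the mitochondrial RNA polymerase, differed by 0.24 ± 0.10 (adjusted p = 0.127), and *Mgme1*, a nuclease of mitochondrial DNA, by 0.30 ± 0.16 (adjusted p = 0.209). Of 23 genes of mitochondrial RNA processing and stability, 1 rose, *Trmt10c*, a subunit of mitochondrial RNase P (0.53 ± 0.16, adjusted p = 0.0485), against 7.4% of all genes tested, with a median of 0.18. The call was lost with scaling to the nuclear total, with the length trend removed and with mitochondrial counts kept in the total, where 1 gene of the list was called lower. *Lrpprc*, which stabilises mitochondrial messenger RNAs, differed by 0.45 ± 0.16 (adjusted p = 0.0733), *Slirp*, its partner, by -0.39 ± 0.21 (adjusted p = 0.198) and *Fastkd1* by 0.40 ± 0.13 (adjusted p = 0.059).

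Nuclear subunits of the respiratory chain stood on the lower side. Of 37 complex I subunits, 11 fell and none rose, against 5.39% of all genes tested that were lower, with a median of -0.52. *Ndufa11* had 213 ± 26.4 CPM in the high and 355 ± 74.2 in the low hearts (log2 fold change -0.67 ± 0.15, adjusted p = 0.0243), and *Ndufa2* differed by -0.89 ± 0.23 (adjusted p = 0.0327). Of 46 subunits of complexes II to V, 10 fell and none rose, against the same 5.39%, with a median of -0.51. *Atp5e*, a small subunit of the ATP synthase, fell by 1.03 on the log2 scale (adjusted p = 0.0305) and *Atpif1*, an inhibitor of that enzyme, by 0.59 (adjusted p = 0.0329). Of 78 mitochondrial ribosomal proteins, 13 fell and none rose, also against 5.39%, *Mrps28* (-0.49) and *Mrpl13* (-0.45) first among them, with a median of -0.30. The number of calls in these 3 lists depended on scaling and tool. In the order above, 33, 33 and 34 genes were lower with mitochondrial counts kept in the total. With library sizes from the tested genes 6, 7 and 7 were lower, and in DESeq2 29, 28 and 16. None was higher in these 3 alternatives. The median transcript length was 760 bases for the complex I list, 725 bases for complexes II to V and 1313 bases for the ribosomal proteins. Set against genes of like length, the medians were -0.02, -0.02 and 0.05, and with the length trend removed none of the 3 lists had a called gene. Within the 10 hearts numbered 15 or more, where 1037 of 12131 genes were higher with the percent and 979 lower, 1 complex I subunit was higher and 6 lower, and of complexes II to V, 4 were higher and 12 lower.

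Mitochondrial import and dynamics were split by gene. The fusion genes *Opa1* (log2 fold change 0.80 ± 0.22, adjusted p = 0.0368) and *Mfn2* (0.65 ± 0.19, adjusted p = 0.0467) rose. So did the fission gene *Dnm1l* (0.43), the mitophagy receptor *Fundc1* and the import receptor *Tomm70a* (0.74). The fission adaptor *Fis1* (-0.78) and the small import subunit *Tomm7* (-0.71) fell. Of 32 genes on this list, 5 rose and 2 fell, against 7.4% and 5.39% of all genes tested, and with the length trend removed 1 was higher and 0 lower. The balance turned with mitochondrial counts kept in the total, where 2 were higher and 9 lower, with a median of -0.18 in place of -0.06. *Opa1* and *Mfn2* have transcripts of 5800 and 4312 bases and *Fis1* and *Tomm7* of 782 and 1125 bases.

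Genes of fuel use differed in few members. Of 22 genes of pyruvate dehydrogenase and the TCA cycle, 0 passed edgeR's test, with 8 at an unadjusted p under 0.05 and a median of 0.25. DESeq2 called 2 of them higher and 1 lower. With mitochondrial counts kept in the total, edgeR called 0 higher and 3 lower, and the median was 0.12. Citrate synthase, *Cs*, had 1540 ± 93.2 CPM in the high and 1105 ± 205 in the low hearts (log2 fold change 0.41 ± 0.15, adjusted p = 0.0832), and *Sdhb*, a subunit of succinate dehydrogenase counted with complexes II to V as well, differed by -0.39 ± 0.14 (adjusted p = 0.0814). Within the 10 hearts numbered 15 or more, where 1037 of 12131 genes were higher with the percent, 13 of these 22 were, as were 9 of the 23 fatty acid oxidation genes described next. Of 23 genes of fatty acid oxidation, the fatty acid transporter *Cd36* (0.50 ± 0.13, adjusted p = 0.0329) and the acyl-CoA synthetase *Acsl1* (0.66 ± 0.19, adjusted p = 0.0433) rose, against 7.4% of all genes tested. The median of the list was 0.07, and it was -0.05 when mitochondrial counts were kept in the total. Of 19 targets of PPAR receptors, 2 rose, *Acot2* (0.43) among them, with a median of 0.04 that also changed sign with that scaling (-0.09). Of 19 genes of glycolysis, the hexokinase *Hk2* rose (0.60) and the phosphoglycerate mutase *Pgam2* fell (-0.48), while with mitochondrial counts kept in the total 1 was higher and 6 lower. The 2 calls in each of these lists of 19 stand against 12.8% of all genes tested. With the length trend removed, 0 genes of these 4 lists passed, while the medians were 0.29 for the TCA cycle, 0.18 for fatty acid oxidation, 0.17 for PPAR targets and 0.06 for glycolysis.

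**Figure D5:**
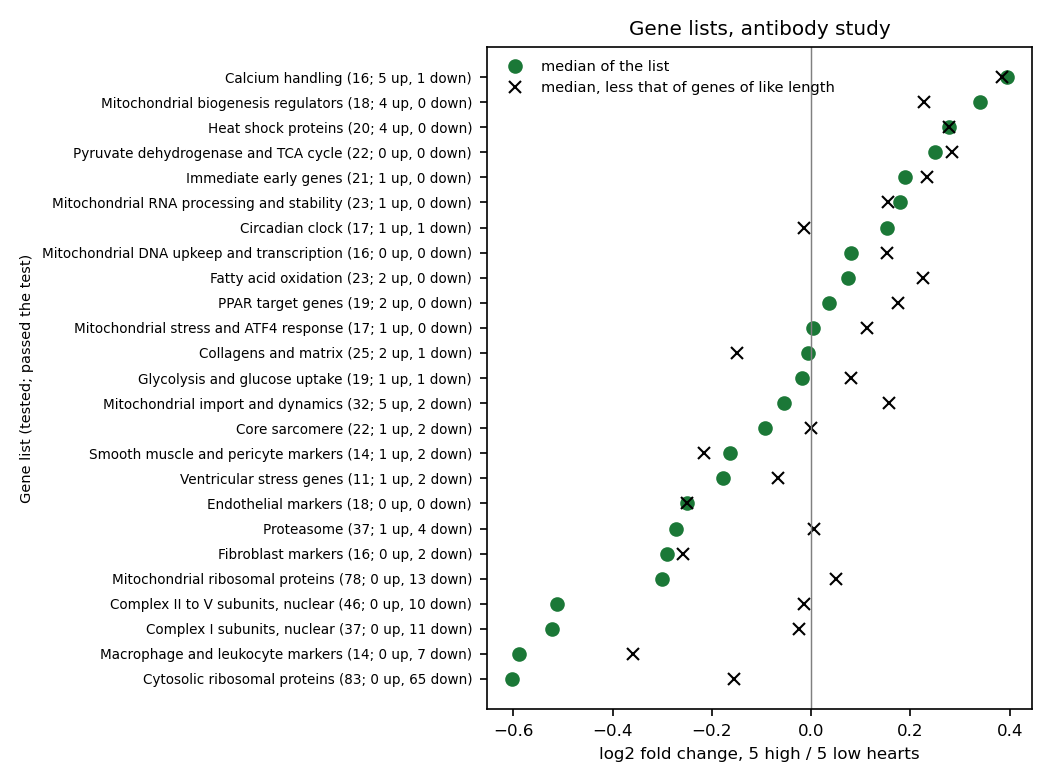
Median log2 fold change (horizontal axis) of the gene lists with at least 10 tested genes (green points), and the same less the median of genes of like transcript length (crosses); brackets give the genes tested and those that passed the test upwards and downwards. The medians of the respiratory chain lists move from -0.52 and -0.51 to -0.02, while that of calcium handling is 0.38 after and 0.39 before, although none of its genes passed with the length trend removed.

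Cytosolic ribosomal proteins were the list with the most calls: 65 of 83 fell and none rose, against 5.39% of all genes tested. *Rpl12*, of the large subunit, had 103 CPM in 3D6 4, 99.8 in control 8, 111 in 3D6 12, 132 in control 3 and 105 in 3D6 7. It had 158 in 3D6 20, 155 in control 15, 166 in control 23, 171 in control 18 and 233 in control 22. The sets did not overlap (log2 fold change -0.65 ± 0.14, adjusted p = 0.0225). *Rpl10* differed by -0.52 ± 0.12 (adjusted p = 0.0232). The median of the list was -0.60, and -0.16 against genes of like length. With the length trend removed, 0 of the 83 passed. Many ribosomal protein genes have processed copies in the genome, among which counts can be divided. Of 37 proteasome genes, 1 rose and 4 fell, among them *Psma7* (-0.55) and *Psma5* (-0.51), against 12.8% of all genes tested in either direction. With mitochondrial counts kept in the total, 0 were higher and 18 lower. None of the 37 passed with the length trend removed, and their median went from -0.27 to -0.02.

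Genes of the contractile and electrical apparatus were mixed. Of 16 genes of calcium handling, 5 rose and 1 fell, against 7.4% and 5.39% of all genes tested, with a median of 0.39. The sodium-calcium exchanger *Slc8a1* had 456 CPM in 3D6 4, 577 in control 8, 464 in 3D6 12, 389 in control 3 and 541 in 3D6 7. It had 257 in 3D6 20, 324 in control 15, 228 in control 23, 199 in control 18 and 137 in control 22. The sets did not overlap (log2 fold change 1.02 ± 0.21, adjusted p = 0.0191), but control 11, which lies between, had 446. *Ryr2*, the calcium release channel, rose by 0.80 ± 0.19 (adjusted p = 0.0264), *Cacna2d1*, a calcium channel subunit, by 0.74 ± 0.11 (adjusted p = 0.0108), and *Camk2d* by 0.59. *Sri*, encoding sorcin, fell (-0.45). The median of the list was 0.38 against genes of like length, and none of its genes passed with the length trend removed.

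Of 22 core sarcomere genes, *Nebl*, encoding nebulette, rose (0.82) and *Tcap*, encoding telethonin, and *Tnnc1* fell (-1.08 for *Tcap*). These 3 calls stand against 12.8% of all genes tested, and none passed with the length trend removed. With mitochondrial counts kept in the total, 1 gene of the list was higher and 6 lower. *Tnnt2*, cardiac troponin T, differed by -0.44 ± 0.16 (adjusted p = 0.0791), and *Myh6*, the main myosin heavy chain of the adult mouse heart, had 39748 ± 2146 CPM in the high and 38661 ± 3337 in the low hearts (log2 fold change -0.02 ± 0.13, adjusted p = 0.94). The sign of *Myh6* changed with the scaling. Of 11 ventricular stress genes, *Xirp2* rose (1.48 ± 0.35, adjusted p = 0.0254) and the metallothioneins *Mt1* and *Mt2* fell, against the same 12.8%, and none of the 3 passed with the length trend removed. Of 20 heat shock genes, 4 rose, among them *Hsph1* (0.64) and *Dnajb4* (0.74), against 7.4% of all genes tested. None passed with the length trend removed, while the median of the list was 0.29 in place of 0.28. Of 21 immediate early genes, *Fosl2* rose (0.63), against 7.4% of all genes tested, a call lost with the length trend removed, and *Nr4a3* differed by 1.32 ± 0.41 (adjusted p = 0.0507). Of 17 genes of mitochondrial stress and the ATF4 response, the amino acid transporter *Slc38a2* rose (0.86), against the same 7.4%, and the mitochondrial protease subunit *Clpp* differed by -0.38 ± 0.13 (adjusted p = 0.072). Of 17 clock genes, *Clock* rose (0.72) and *Dbp* fell (-0.96), against 12.8% of all genes tested in either direction, and neither passed with the length trend removed.

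Of the markers of other cells, the red cell and the macrophage and leukocyte lists had the largest shares of calls. All tissue values are from bulk RNA, in which fewer cells of a type and less RNA per cell cannot be told apart. Of 5 tested red cell markers, all 5 fell, against 5.39% of all genes tested, with a median of -1.04. The median was -0.53 against genes of like length, and 0 of the 5 passed with the length trend removed. *Hba-a1*, an alpha globin, had 313 CPM in 3D6 4, 340 in control 8, 308 in 3D6 12, 310 in control 3 and 491 in 3D6 7. It had 675 in 3D6 20, 610 in control 15, 540 in control 23, 600 in control 18 and 1004 in control 22 (log2 fold change -1.04 ± 0.21, adjusted p = 0.0175). The sets did not overlap. *Hbb-bs* differed by -1.12 ± 0.21 (adjusted p = 0.0147), and globin genes that are near copies of each other can share counts. The summed level of the list was 1262 to 2089 CPM in the high and 2198 to 3901 in the low hearts.

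Of 14 tested macrophage and leukocyte markers, 7 fell and none rose, against 5.39% of all genes tested that were lower, and 1 passed with the length trend removed. The median of the list was -0.59, and -0.36 against genes of like length. It had a summed level of 318 to 421 CPM in the high and 506 to 709 in the low hearts. *Lyz2*, lysozyme of macrophages, had 60.7 CPM in 3D6 4, 66.8 in control 8, 65.0 in 3D6 12, 81.5 in control 3 and 61.6 in 3D6 7. It had 109 in 3D6 20, 113 in control 15, 118 in control 23, 85.9 in control 18 and 105 in control 22 (log2 fold change -0.65 ± 0.12, adjusted p = 0.016). The complement gene *C1qa* fell by 0.75 (adjusted p = 0.0167), and the general leukocyte marker *Ptprc* differed by -0.17 ± 0.41 (adjusted p = 0.784). Of 16 fibroblast markers, *Dpt* (-0.45) and *Vim* (-0.50) fell, against 12.8% of all genes tested in either direction, and neither passed with scaling to the nuclear total or with the length trend removed. The median of the list was -0.29, and -0.27 with that trend removed. The receptor *Pdgfra* differed by 0.18 ± 0.11 (adjusted p = 0.234). Of 18 endothelial markers, 0 passed edgeR's test (6 at an unadjusted p under 0.05; DESeq2 called 1 higher and 4 lower), with a median of -0.25, *Pecam1* at -0.16 ± 0.12 (adjusted p = 0.347), *Rgcc* at -0.76 ± 0.25 (adjusted p = 0.0615) and *Esam* at -0.43 ± 0.14 (adjusted p = 0.0621). With mitochondrial counts kept in the total, edgeR called 0 of these 18 higher and 4 lower. Of 14 smooth muscle and pericyte markers, *Abcc9*, a channel subunit also expressed in heart muscle, rose (0.90), *Tagln* and *Cnn1* fell, against 12.8% of all genes tested in either direction, and *Myh11* differed by -0.62 ± 0.24 (adjusted p = 0.099). With the length trend removed, 0 genes of this list were higher and 1 lower. The part of these cells in the differences of the other lists was not tested.

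Atrial markers varied widely within both sets, and the fold changes of all 4 were negative (median -4.61). *Myl7*, the atrial light chain, had 0 CPM in 3D6 4 and control 8, 159 in 3D6 12, 0.700 in control 3 and 186 in 3D6 7. It had 237 in 3D6 20, 1393 in control 15, 0.202 in control 23, 0 in control 18 and 0.413 in control 22 (log2 fold change -5.42 ± 3.24, adjusted p = 0.252). *Myl4* (-5.50, adjusted p = 0.226) and *Sln* (-3.81, adjusted p = 0.247) did not pass either. Of the 4 atrial markers, edgeR called 0, with 0 at an unadjusted p under 0.05, and DESeq2 called 2 lower. With an atrial marker score as a covariate, 1305 genes were higher and 1165 lower. Adipocyte, mesothelial, platelet, Schwann cell and fast skeletal muscle markers had no gene called by edgeR among 5, 2, 3, 4 and 2 tested. At an unadjusted p under 0.05 there were 1 platelet and 2 Schwann cell markers, and DESeq2 called 1 platelet marker lower. Their first members were *Cidea* (-0.23) and *Lpl* (0.15), *Upk3b* (-2.46) and *Wt1* (-0.29), *Pf4* (-0.86) and *Itga2b* (-0.69), *Sox10* (-1.12) and *Prnp* (0.42), and *Ckm* (-0.20) and *Mybpc2* (-0.15). *Adipoq* was not among the genes tested. Of 25 genes of collagens and matrix, *Eln*, encoding elastin, fell (-0.85), and the laminin genes *Lama2* (0.45) and *Lamb1* rose, 3 calls against 12.8% of all genes tested. With mitochondrial counts kept in the total, none of the 25 was called higher, and none was with the length trend removed, where the median of the list was -0.18.

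Counts on transcripts of 4 annotated classes other than protein-coding were at a smaller share of nuclear counts in the high hearts. Transcripts annotated as retained intron took 2.04% ± 0.0774 of nuclear counts in the high and 2.90% ± 0.727 in the low hearts (exact permutation test, two-sided, p = 0.00794, adjusted over 5 classes p = 0.00992). The share was 2.00% in 3D6 4, 2.02% in control 8, 2.05% in 3D6 12, 1.97% in control 3 and 2.17% in 3D6 7. It was 2.53% in 3D6 20, 2.34% in control 15, 2.54% in control 23, 2.96% in control 18 and 4.14% in control 22. The high hearts were alike and the low hearts spread upwards, while control 11, between them in rank, had 1.99%. Without control 22 the difference in means was -0.55 percentage points in place of -0.86. The share on long noncoding RNA was 0.945% ± 0.0445 in the high and 1.13% ± 0.175 in the low hearts, and that on transcripts marked for nonsense-mediated decay 1.23% ± 0.0198 and 1.44% ± 0.222 (exact permutation test, p = 0.00794 and adjusted p = 0.00992 for each). Processed transcripts without an open reading frame took 1.05% ± 0.0254 and 1.36% ± 0.347 with the same p-values. Without control 22 the differences were -0.16 in place of -0.31 percentage points for processed transcripts, -0.11 in place of -0.21 for nonsense-mediated decay and -0.12 in place of -0.19 for long noncoding RNA. Protein-coding transcripts took 81.4% ± 1.03 and 76.9% ± 3.38 (exact permutation test, p = 0.0238, adjusted p = 0.0238), a share that counts the copies as nuclear. With the copies left out it was 93.2% ± 0.138 and 91.1% ± 1.94 (exact permutation test, p = 0.00794). All exact tests on these shares permuted the hearts without regard to the antibody, which was unequal between the sets. Without 3D6 4, 3D6 12 or 3D6 7 none of the 5 classes passed (exact permutation test, adjusted p between 0.0529 and 0.0556), and with 8 hearts against 8 the share on nonsense-mediated decay did not (exact permutation test, adjusted p = 0.0645). The retained intron difference without each of those 3D6 hearts was -0.85, -0.86 and -0.89 percentage points, about as large as with all hearts.

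Of 9 nuclear-retained long noncoding RNAs, 2 fell and none rose, against 5.39% of all genes tested that were lower, with a median of -0.81. *Neat1*, which builds paraspeckles, had 581 ± 68.5 CPM in the high and 1099 ± 383 in the low hearts (log2 fold change -0.90 ± 0.25, adjusted p = 0.0379), and *Firre* differed by -0.94 ± 0.28 (adjusted p = 0.0485). The call of *Firre* was lost with RLE size factors, scaling to the nuclear total, library sizes from the tested genes and limma-voom. Neither passed with the length trend removed, while the median of the list was -1.08. The slope of *Neat1* with the mitochondrial percent was positive within the 6 hearts numbered 12 or less (0.69). Of 4 genes listed as taking ribosomal RNA reads, *Gm42418* fell (-0.67), against 5.39% of all genes tested, a call lost with the length trend removed. *Gm37376*, on the same list, differed by -0.61 (adjusted p = 0.2). It lies at chr19:5801941-5802393 on the plus strand, and whether it takes ribosomal RNA reads was not tested. Of 4 small structural RNAs, 0 passed edgeR's test (1 at an unadjusted p under 0.05; 0 in DESeq2), with *Rn7sk* at -0.83 and *Rn7s2* at 0.38. Of 9 replication-dependent histones, *Hist2h2aa2* fell (-0.59), against 5.39% of all genes tested. The call was lost under the same 4 alternatives as that of *Firre* and with the length trend removed, where the log2 fold change was 0.02, and *Hist1h4h* differed by -0.58 (adjusted p = 0.0673).

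In the peptide study the same rule chose 5 of 14 hearts with 21.02% to 22.2% and 5 with 12.9% to 17.9% of counts on mitochondrial genes. Its table holds other mitochondrial genes and hardly any counts on the copies, at most 0.0043%, so the percents of the studies cannot be set side by side. Of 11950 genes tested, edgeR called 0 (0% in each direction), with 940 at an unadjusted p under 0.05, and DESeq2 called 0, with 769. Without overlap between the sets were 0.368% of the genes upwards and 0.494% downwards. With all 14 hearts and the percent as a continuous term, 656 genes were higher and 1171 lower. The 3 genes with the smallest p in each direction, none of which passed, were *BC037032* (log2 fold change 0.89), *Rmdn1* (0.37) and *Sox7* (0.42) on the higher side and *Slc43a1* (-1.04), *Pirt* (-1.09) and the atrial gene *Bmp10* (-6.20) on the lower side.

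Fold changes in the 2 studies, which share no mice, had the same sign in 57.6% of the 11350 genes tested in both and in 70.5% of the 1484 antibody study calls among them. The respiratory chain lists differed in direction. In the peptide study, 35 of 36 complex I subunits and 43 of 45 subunits of complexes II to V had positive fold changes, with medians of 0.17 and 0.18, against 2 of 37 and 3 of 46 in the antibody study. The cytosolic ribosomal proteins had a median of -0.05 in the peptide study. The red cell list (-1.15), the macrophage and leukocyte list (-0.34), the regulators of mitochondrial biogenesis (0.07) and calcium handling (0.17) had medians of the same sign in both. *Ppara* differed by 0.25 ± 0.16 (adjusted p = 0.64). The difference between the studies was not tested.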

How the data were processed

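The members and gene lists were chosen with earlier results of these data known. The authors quantified reads of stranded total RNA libraries with Salmon against GENCODE vM24 transcripts (mouse, GRCm38). The authors deposited estimated counts per transcript for the antibody study and whole-number counts per gene for the peptide study, neither normalized; 1 column of no labelled sample was not used. Transcripts were summed to genes with GENCODE vM21, which lists 99.2% of them, and rounded. The percent was taken of the whole table. Nuclear genes averaging 10 counts or more per heart of a study were scaled by TMM and tested with edgeR 4.0.16 (R 4.3.3; quasi-likelihood, two-sided, Benjamini-Hochberg), with the treatment as covariate. CPM exclude mitochondrial genes and include the TMM factors, and transcript length is the count-weighted mean over a gene's transcripts. Copies were found with BLAST+ 2.17.0, stayed in the fit and are not named as changed. Named genes were the 12 with the smallest p in each direction (adjusted p under 0.05, mean of at least 5 CPM), the first 2 of each of 36 lists, fixed cell markers and 5 genes of mitochondrial transcription; some genes that this rule names are not reported here. In simulated counts, 200 genes were given a change of 1 on the log2 scale. The antibody design found 75.8% of them and wrongly called 9 of 12060 genes. For the peptide study these values were 75.6% and 11 of 11849. They describe the simulated counts and do not give the number of wrong calls between the real hearts. Real hearts also differed in ways shared by many genes, such as the trend with length. The effect of such shared differences on wrong calls was not tested. Total counts were 6397192 to 8310478 per heart in the antibody and 4478991 to 6015767 in the peptide study, and every pair of hearts of a group differed beyond sampling noise (the smallest chi-square, divided by its degrees of freedom, was 3.47). Each heart is 1 mouse by its label. Alternatives were DESeq2 1.42.0, limma-voom 3.58.1, other scalings, filters, covariates and rankings, and leaving out each heart.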

Additional observations from a re-analysis of the deposited data

Results flagged for a closer look

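Of 92 sets of 5 values examined, 9 held a value far from the other 4, where chance gives about 1 in 20. Among the high hearts, the share of nuclear counts on long noncoding RNA was 0.866% in control 3, below the others. *Nnt* was at 240 CPM in 3D6 7 and *Pde4d* at 23.3 CPM in control 3, both below the others, and *Lgr4* was at 32.8 CPM in control 8, above them. *Hbb-bt* at 98.0 CPM and *Hba-a1* at 491 CPM were highest in 3D6 7. Among the low hearts, control 15 was above the others for *Ppara* at 14.9 CPM and *Myl7* at 1393 CPM. *Lrpprc* was lowest in control 22, at 85.3 CPM.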

How the results depend on the processing

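In the antibody comparison, DESeq2, limma-voom, other size factors, scaling to the nuclear total and at least 10 counts in every heart left the 2 counts within 1.5 times. The count was 474 higher and 1525 lower with mitochondrial counts kept in the total, 1349 higher without a filter on low counts, and 1671 higher and 1781 lower without the antibody term. It was 1165 lower with the atrial score, 2654 higher and 2592 lower with the percent as a continuous term over 16 hearts, 592 and 160 with 8 hearts against 8, and 8 and 2 with 3 against 3. Leaving out each heart in turn gave 4 to 1496 higher and 1 to 1306 lower, with the fewest without control 8 (4 and 1) and 3D6 20 (5 and 2) and the most without control 15 (1496 and 1306); without control 22 they were 1463 and 713, and without control 18, 493 and 128. In the peptide study, leaving out hearts gave 0 higher and 0 to 1 lower, the continuous term over 14 hearts 656 higher and 1171 lower, and no filter 88 and 854. The cause of these shifts was not tested.

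The next alternatives were chosen after seeing the data. Ranking by mitochondrial genes and copies together gave 0 and 0, and that percent as a continuous term 100 and 192, both with the copies left out of the table. Others took the percent of mitochondrial genes as a continuous term, for which all 16 hearts had given 2654 and 2592. With the 4 hearts nearly lacking Gm29216 left out, the other 12 hearts gave 1828 and 1867. With the mouse number as a further term over 16 hearts 419 and 318 passed, in the hearts numbered 15 or more 1037 and 979, and in those numbered 12 or less 4 and 19. Between the high and low hearts with the length trend removed, 111 and 30 passed.

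The difference in the share of counts on nonsense-mediated decay transcripts was -0.12 percentage points with 8 hearts against 8 (exact permutation test, adjusted p = 0.0645). Without each heart in turn, the difference ranged from 3.37 to 5.55 for protein-coding, -1.002 to -0.553 for retained intron, -0.374 to -0.159 for processed transcripts, -0.250 to -0.113 for nonsense-mediated decay and -0.223 to -0.115 for long noncoding RNA. Without 3D6 4, 3D6 12 or 3D6 7 the adjusted p of all 5 classes was between 0.0529 and 0.0556 (exact permutation test).

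Of 101 named genes, these changed sign or, for *Sln* with 3 hearts against 3, were at 0. With the length trend removed the log2 fold change was 0.016 for *Clpp*, 0.12 for *Cidea*, -0.074 for *Pdgfra*, 0.0018 for *Ckm*, 0.032 for *Hist1h4h*, 0.022 for *Hist2h2aa2* and 0.15 for *Gm37376*. With the atrial score it was 0.23 for *Myl7*, 0.016 for *Mybpc2* and 0.12 for *Sln*. With 3 hearts against 3 it was 0.040 for *Ptprc*, 0.35 for *Mybpc2*, 0 for *Sln* and 0.90 for *Upk3b*. Ranked with copies it was 0.045 for *Ptprc*, 0.0050 for *Mybpc2* and 0.011 for *Myh6*. The next values are slopes from fits with the percent as a continuous term. Without the 4 hearts nearly lacking Gm29216 the slope was 0.34 for *Mybpc2* and 0.040 for *Rn7sk*, with the mouse number 0.13 for *Ptprc*, 0.16 for *Mt2* and 0.30 for *Mybpc2*, and over 16 hearts 0.024 for *Mybpc2*. In hearts numbered 15 or more it was -0.16 for *Pde4d*, 0.073 for *Ckm*, 0.58 for *Mt2*, -0.051 for *Ralgapa2*, 1.21 for *Mybpc2*, 0.11 for *Upk3b* and 0.28 for *Rn7sk*. In those numbered 12 or less it was 0.18 for *Myh11*, 0.22 for *Slirp*, 0.079 for *Cidea*, 1.87 for *Ptprc*, 0.11 for *Tnnt2*, 3.44 for *Itga2b*, 0.034 for *Myh6*, -0.052 for *Trmt10c*, 0.15 for *Dbp*, 0.69 for *Neat1* and 0.65 for *Gm37376*. The percents of these hearts span 32.8 to 37.8, less than the difference per which the slopes are given. Between the high and low hearts, the log2 fold change of *Myh6* was 0.017 without a filter and 0.0076 without the antibody term. It was 0.018 with the copies left out and with library sizes of the tested genes. Leaving out each heart gave -0.57 to 0.34 for *Ptprc*, -0.34 to 0.072 for *Mybpc2* and -0.051 to 0.059 for *Myh6*.

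No paired analysis was possible because the 3D6 and control mice share no mouse number. The depth of 6397192 counts or more per heart limits genes near 10 counts, and with 5 hearts in a set the exact test cannot go below p = 0.00794.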
